A study of Mus musculus with 4 samples.

Results

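Toll-like receptors and MYD88, the adaptor that carries the signal of most of them, were examined in J558 allografts from mice given vehicle or TAK-931. The members were the 10 rows of the count tables whose gene symbol was Tlr1, Tlr2, Tlr3, Tlr4, Tlr6, Tlr7, Tlr8, Tlr9, Tlr13 or Myd88, out of 24421 rows in all. All 10 had enough counts to be tested, among 13669 tested genes. J558 is a plasmacytoma line of BALB/c mice, and an allograft is a tumor grown from these cells, here under the skin of the flank of female BALB/c mice with a working immune system. Vehicle was 0.5% methylcellulose and TAK-931, an inhibitor of the replication kinase CDC7, was given by mouth at 60 mg/kg once daily, with tumors taken on day 6. RNA of the whole tumor was sequenced in 2 independent samples per group, named Vehicle-1, Vehicle-2, TAK-931-1 and TAK-931-2. Mice were 4 weeks of age, an age stated for all animals of the work and not for this experiment alone, and the labels gave no sequencing batch. The column names of the deposited tables carry the letter B for Vehicle-1 and TAK-931-1 and the letter R for Vehicle-2 and TAK-931-2, with no meaning given in the sources used here.

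Toll-like receptors are germline-encoded sensors of microbial and damaged-cell products, found above all on macrophages, dendritic cells and B cells. TLR1, TLR2, TLR4 and TLR6 sit at the cell surface and bind lipopeptides or lipopolysaccharide, whereas TLR3, TLR7, TLR8, TLR9 and TLR13 reside in endosomes and bind nucleic acids. Bound receptors recruit MYD88 through a shared TIR domain, and MYD88 passes the signal through IRAK kinases and TRAF6 to NF-κB and interferon regulatory factors. TLR3 uses the adaptor TRIF instead, and TLR4 uses both.

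Libraries held between 16487902 and 19589339 counts. Each level below is in CPM, the counts scaled to a common library total with TMM factors, and levels of different genes are compared only in CPM per kb of exon. The TAK-931 pair stood far apart, with a common biological coefficient of variation of 0.579 against 0.132 in the vehicle pair, so each library is given on its own. Plasma cell genes of the J558 line were abundant in every library, with 4584 to 11735 counts of Sdc1 and at least 59538 counts of Jchain, whereas the mature B cell markers were mixed: Pax5 had 0 counts in all 4 libraries, but Cd79b had at least 1405 and Ms4a1 at least 252. The summed level of 14 monocyte and macrophage markers was 681 and 572 CPM in Vehicle-1 and Vehicle-2, 9842 CPM in TAK-931-1 but 1779 CPM in TAK-931-2, and 14 of these 14 genes were above the vehicle pair in each TAK-931-treated library, against 29.9% of all tested genes. In RNA of whole tumors, fewer cells of a type and less RNA per cell cannot be told apart.

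The genes lay on 6 chromosomes in the mm10 build used by the files, and none of their exons overlapped an exon of another gene in the tables. Tlr1 (chr5:64924680-64933558) and Tlr6 (chr5:64953095-64960034) were neighbors on the minus strand, as were Tlr8 (chrX:167242732-167263788) and Tlr7 (chrX:167304926-167330571). Tlr13 (chrX:106143275-106160493) was on the plus strand of the same chromosome. Tlr2 (chr3:83836272-83841608), Tlr3 (chr8:45395665-45410539) and Myd88 (chr9:119335988-119340040) were on the minus strand, and Tlr4 (chr4:66827811-66842796) and Tlr9 (chr9:106222598-106226876) on the plus strand.

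Promoter sequences of RefSeq (GRCm38.p6) were found for 8 of the 10 genes, all but Tlr4 and Tlr7. The windows of 300 bases around each start were searched on both strands for letters bound by factors of myeloid cells and of inflammation, namely GAGGAAG (PU.1), GAAA, any 2 bases and GAAA (ISRE, the interferon-stimulated response element) and GGGA, any 2 bases and TTCC (NF-κB). The 100 bases before the start are shown for a pair of genes that were high in both TAK-931-treated libraries (Tlr1, Tlr13) and a pair that was not (Tlr2, Myd88), with motif letters in capitals.
Tlr1, chr5:64933559-64933658, minus strand: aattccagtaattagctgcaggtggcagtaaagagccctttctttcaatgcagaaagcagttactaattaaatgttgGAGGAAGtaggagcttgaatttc
Tlr13, chrX:106143175-106143274, plus strand: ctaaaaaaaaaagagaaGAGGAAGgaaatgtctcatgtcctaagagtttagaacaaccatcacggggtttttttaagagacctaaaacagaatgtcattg
Tlr2, chr3:83841609-83841708, minus strand: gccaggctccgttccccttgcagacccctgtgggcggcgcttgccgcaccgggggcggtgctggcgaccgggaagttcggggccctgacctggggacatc
Myd88, chr9:119340019-119340118, minus strand: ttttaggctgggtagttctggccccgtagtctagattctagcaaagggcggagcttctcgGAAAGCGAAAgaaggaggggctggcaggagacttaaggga

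The PU.1 letters were in 3 of the 10 windows of these 8 genes (Tlr1, Tlr9 and Tlr13) and in 13.6% of all 32851 windows. Tlr3, Tlr6 and Tlr8, which were also high in both TAK-931-treated libraries, had no such letters, and neither had another window of Tlr1. The ISRE letters were in those of Tlr6 and Myd88 and in 3.44% of all windows. In Myd88 they are the run of capitals above. The NF-κB letters were in the window of Tlr3 and in 1.47% of all windows. A match of letters is a description of the window and not a binding site.

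Of the 9 receptors, 7 were above the vehicle pair in each TAK-931-treated library, and the receptors Tlr2 and Tlr4 and the adaptor Myd88 were not. The 7 were Tlr1, Tlr6 and all 5 endosomal receptors. Among all tested genes, 29.9% were placed in this way, 32.8% were lower without overlap, and 62.7% did not overlap in either direction. In TAK-931-1 all 10 members lay above both vehicle-treated libraries (46.0% of all tested genes), and in TAK-931-2 it was 7 of 10 (42.3%), with Tlr4 and Myd88 below both (44.4%). No member passed an adjusted p of 0.05 in edgeR's quasi-likelihood test, nor did any of the 13669 genes (0.0% called), whose lowest adjusted p by edgeR was 0.275. An unadjusted p under 0.05 was reached by the same 7 receptors (11.6% of all genes higher, 6.55% lower, 18.1% in all). The number was 4 without Vehicle-1 (6.86% of all genes) and 4 without Vehicle-2 (6.98%). It was 6 without TAK-931-1 (40.8%), 10 without TAK-931-2 (63.1%) and 0 by limma-voom (14.3%). DESeq2, run as an alternative, called 6 members at an adjusted p under 0.05, namely those 7 without Tlr9, where it called 10.3% of all genes and 9.21% as higher. A fit with the replicate number as a block called 0 members, against 1.05% of all genes, nearly all of them higher (1.03%). The median log2 fold change of the members was 2.61, with a range of 0.29 to 3.64, beside a median of 0.02 over all tested genes. It was 1.26 without TAK-931-1. With 2 libraries against 2, no exact permutation test of a single gene can go below a p of 0.333.

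**Figure D1:**
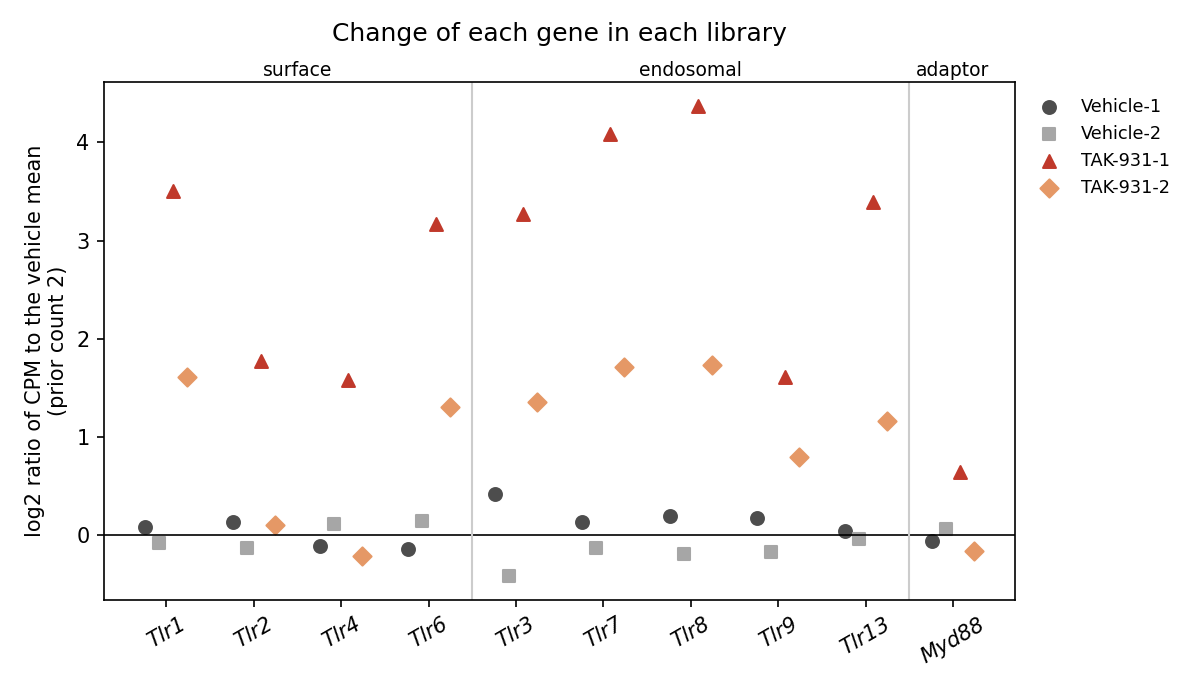
Log2 ratio of the CPM of each gene in each library to the mean of the vehicle-treated libraries (vertical axis, prior count of 2), by gene and role (horizontal axis); each symbol is 1 library. TAK-931-1 is the highest point for every gene, and TAK-931-2 lies near 0 for Tlr2, Tlr4 and Myd88 and between 0.80 and 1.74 for the other 7.

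The surface receptors differed among themselves. Tlr1, which pairs with TLR2 to bind triacylated lipopeptides, had 116 and 102 counts with vehicle, and 1417 and 344 counts with TAK-931 (first and second library). In the TAK-931-treated libraries these were 11.5-fold and 3.09-fold the vehicle mean of 6.49 ± 0.541 CPM (SD, n = 2). The groups did not overlap, and the vehicle-treated libraries were within 1.13-fold of each other. The log2 fold change of Tlr1 was 2.86 (SE 0.72), and edgeR gave an adjusted p of 0.275.

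Tlr6, which pairs with TLR2 for diacylated lipopeptides, was rarer, with 28, 34, 332 and 81 counts in Vehicle-1, Vehicle-2, TAK-931-1 and TAK-931-2. Its TAK-931 values were 9.45-fold and 2.56-fold those of the vehicle mean, and its log2 fold change was 2.58 (SE 0.81). Tlr1 and Tlr6 are close paralogs, and 14.8% of the stretches of 50 bases in Tlr1 transcripts were also found in Tlr6. Uniquely placed reads do not report on such stretches where they span the whole read, so both levels may be too low.

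Tlr2, the shared partner of both, did not follow them. It had 283 and 234 counts with vehicle, and 1000 and 282 counts with TAK-931 (first and second library), so that TAK-931-2 at 16.4 CPM lay between Vehicle-1 at 16.8 CPM and Vehicle-2 at 14.0 CPM. Its log2 fold change of 1.17 (SE 0.62) shrank to 0.09 once TAK-931-1 was left out. Tlr4, the receptor of lipopolysaccharide, had 236 and 272 counts with vehicle, and 861 and 223 counts with TAK-931. Against the vehicle mean it stood at 2.99-fold (TAK-931-1) and 0.859-fold (TAK-931-2). The fitted log2 value for Tlr4, 0.95 (SE 0.66), turned to −0.22 without TAK-931-1. The direction of Tlr4 thus rested on 1 library.

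All 5 endosomal receptors were higher in each TAK-931-treated library. Tlr8 and Tlr7, sensors of single-stranded RNA and its breakdown products, had the largest fold changes of the members. Tlr8 had 43 and 32 counts with vehicle, and 915 and 131 counts with TAK-931, a log2 fold change of 3.64 (SE 1.02). Tlr7 had 61 and 50 counts with vehicle, and 1095 and 189 counts with TAK-931, with a log2 fold change of 3.37 (SE 0.91). Among all tested genes, 2.34% had a larger log2 fold change than Tlr8 and 3.15% a larger one than Tlr7. Without TAK-931-1 these fold changes were 1.77 and 1.73.

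Tlr13, a sensor of bacterial ribosomal RNA that humans lack, was the most abundant receptor in TAK-931-1. It had 165 and 154 counts with vehicle, and 1918 and 368 counts with TAK-931, which were 10.6-fold and 2.26-fold the vehicle mean of 9.50 ± 0.391 CPM (SD, n = 2). Across both groups the log2 fold change of Tlr13 was 2.69 (SE 0.81), and it became 1.17 without TAK-931-1. Tlr3, the sensor of double-stranded RNA, was the rarest member, with 34 and 18 counts with vehicle, and 291 and 68 counts with TAK-931. The vehicle-treated libraries differed by 1.87-fold for Tlr3, the widest gap of the 10 genes, and its log2 fold change of 2.64 (SE 0.89) was 1.35 without TAK-931-1.

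Tlr9, which binds unmethylated CpG DNA and is expressed by B cells and plasmacytoid dendritic cells among other cells, differed least among the endosomal receptors. It had 225 and 174 counts with vehicle, and 688 and 353 counts with TAK-931. TAK-931-1 was 1.76-fold TAK-931-2 for Tlr9, against 3.86-fold to 6.30-fold for the other endosomal receptors. Its log2 fold change was 1.26 (SE 0.41). The summed level of 7 markers of plasmacytoid dendritic cells was 134, 125, 429 and 215 CPM in Vehicle-1, Vehicle-2, TAK-931-1 and TAK-931-2, most of it from Bst2, an interferon-inducible gene of many cell types, with 6 of 7 above the vehicle pair in both (29.9% of all tested genes). That of 9 mature B cell markers was 202, 245, 132 and 239 CPM, most of it from Cd79b. Of the 5 tested on the B cell list, Cd22 was above the vehicle pair in each TAK-931-treated library (29.9% of all tested genes). Cd79b was below it (32.8%), and 3 overlapped. Cd22 had 24, 22, 791 and 195 counts in this order, and Fcer2a, which overlapped, had 54, 65, 22 and 252 counts. Siglech had 28, 16, 98 and 36 counts in the same order, and Spib had 24, 16, 114 and 68 counts. The part of either cell type in the level of Tlr9 was not tested.

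Myd88 was the most abundant member and had the smallest fold change. It had 802 and 868 counts with vehicle, and 1475 and 762 counts with TAK-931. In CPM these were 47.5 and 52.0 with vehicle, and 77.6 and 44.4 with TAK-931, so the treated libraries lay on either side of the vehicle-treated ones. The log2 fold change of 0.29 (SE 0.34) was within its error and turned to −0.17 without TAK-931-1. In GENCODE transcripts searched on both strands, 9.82% of the stretches of 50 bases of Myd88 were shared with Acaa1a. In the count tables, the exons of Myd88 overlapped those of no other gene.

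**Figure D2:**
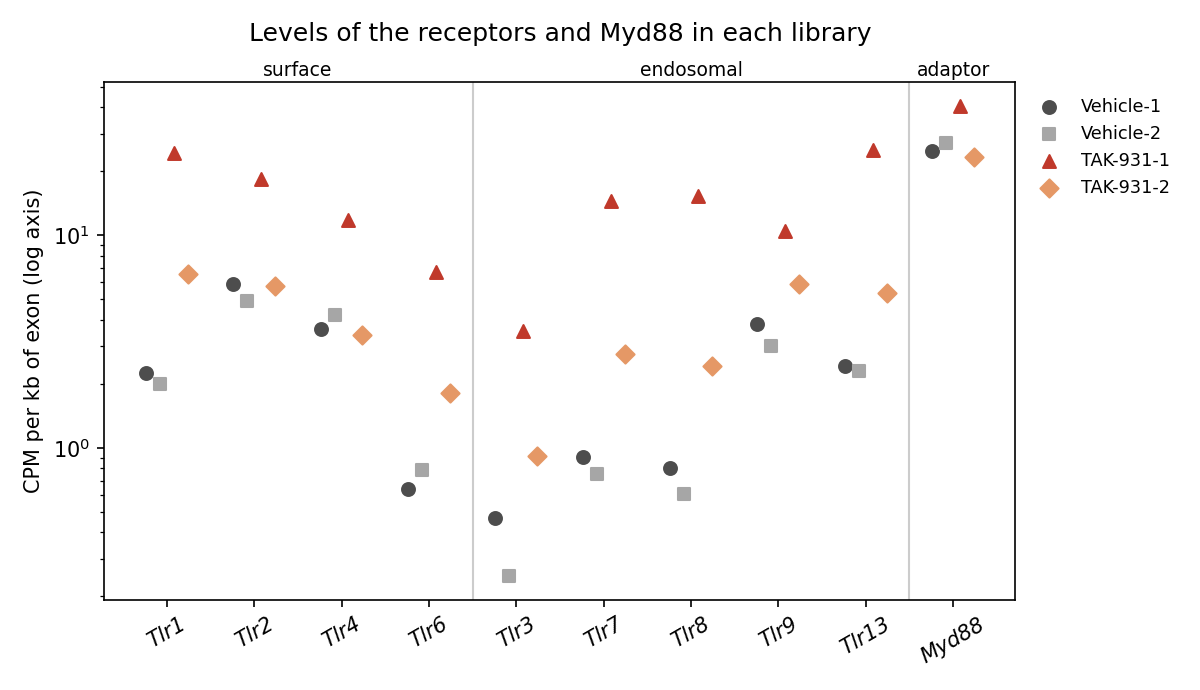
CPM per kb of exon (vertical log axis) of each gene in each of the 4 libraries (symbols), ordered by role. Myd88 has the highest level in each library, and Tlr3 the lowest.

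Because longer genes collect more reads, the order of levels was taken per kb of exon. In vehicle-treated allografts Myd88 stood at 26.1 ± 1.66 CPM per kb, far above every receptor (SD, n = 2, here and in the next sentences). Tlr2 followed at 5.39 ± 0.682, then Tlr4 at 3.94 ± 0.424 and Tlr9 at 3.42 ± 0.593 CPM per kb, and the values of Tlr4 and Tlr9 overlapped between libraries. Tlr13 at 2.37 ± 0.0975 and Tlr1 at 2.13 ± 0.177 CPM per kb came next. Tlr7, Tlr6 and Tlr8, at 0.831 ± 0.110, 0.711 ± 0.103 and 0.707 ± 0.141 CPM per kb, did not differ beyond their spread, and Tlr3 was lowest at 0.357 ± 0.153. The order was different in each treated library. In TAK-931-1, Tlr13 (25.1 CPM per kb) and Tlr1 (24.4 CPM per kb) were above Tlr2 (18.4 CPM per kb), and Tlr8 and Tlr7 (15.2 and 14.5 CPM per kb) were above Tlr4 (11.8 CPM per kb). In TAK-931-2, Tlr1 (6.57 CPM per kb) and Tlr9 (5.93 CPM per kb) were above Tlr2 (5.76 CPM per kb), whereas Tlr7 and Tlr8 (2.77 and 2.42 CPM per kb) stayed below Tlr4 (3.38 CPM per kb).

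The order was also expressed as a share of the summed counts of the 9 receptors, a measure that library scaling does not touch. The grouping of Tlr2 with Tlr4 was chosen after their values were seen. Tlr2 and Tlr4 together held 43.6% of 1191 receptor counts in Vehicle-1 (95% Wilson interval 40.8% to 46.4%) and 47.3% of 1070 counts in Vehicle-2 (44.3% to 50.3%). They held 21.9% of 8517 counts in TAK-931-1 (21.0% to 22.7%) and 24.8% of 2039 counts in TAK-931-2 (22.9% to 26.7%). The group means were 45.4% ± 2.63 and 23.3% ± 2.06 (SD, n = 2), given without a test because the values chose the grouping. The TAK-931-treated libraries, which differed 3.20-fold in Tlr2 and 3.48-fold in Tlr4 themselves, were thus near each other in this share. The share of Tlr1 was 9.64% ± 0.146 with vehicle and 16.8% ± 0.165 with TAK-931 (SD, n = 2). That of Tlr7, Tlr8 and Tlr13 together was 22.3% ± 0.375 and 39.9% ± 8.75 (SD, n = 2). This trio was likewise chosen with the values known, and it leaves out the endosomal receptors Tlr3 and Tlr9. By role, the 4 surface receptors held 57.8% ± 3.06 with vehicle and 44.0% ± 2.28 with TAK-931 (SD, n = 2). The share of Tlr9 was 18.9% and 16.3% in the vehicle-treated libraries, 17.3% in TAK-931-2 and 8.08% in TAK-931-1, so the groups overlapped.

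**Figure D3:**
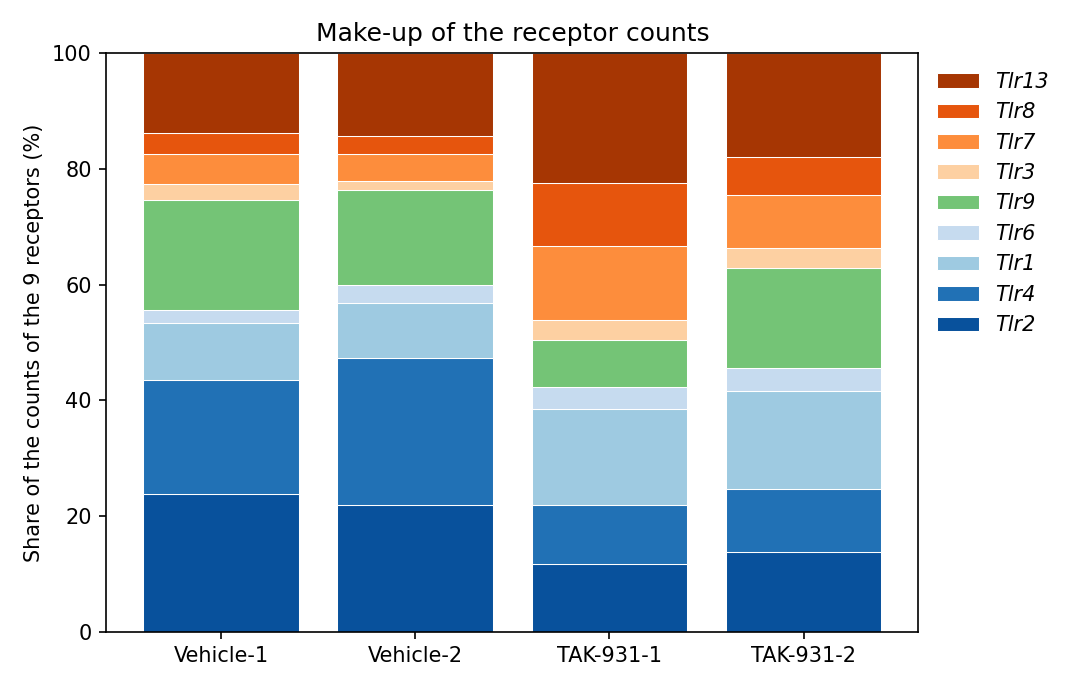
Share of each receptor in the summed counts of the 9 receptors (vertical axis, %), as stacked bars for the 4 libraries. The dark blue bars of Tlr2 and Tlr4 at the foot take 43.6% and 47.3% in the vehicle-treated libraries and 21.9% and 24.8% in the TAK-931-treated libraries.

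Since macrophage markers were also higher with TAK-931, each gene was also divided by the summed CPM of the 14 monocyte and macrophage markers of its own library. A gene of equal CPM in all libraries would differ by −3.98 in TAK-931-1 and −1.51 in TAK-931-2 on this log2 scale, and 87.6% of all tested genes were below the vehicle pair without overlap, while 1.95% were above it. Tlr1, Tlr3, Tlr6, Tlr7, Tlr8 and Tlr13 lay nearest to these markers: their log2 ratio in the TAK-931-treated libraries differed from the vehicle mean by −0.73 (Tlr6) to 0.47 (Tlr8) in TAK-931-1 and by −0.33 (Tlr13) to 0.28 (Tlr8) in TAK-931-2. Of these 6, Tlr7 and Tlr8 were above the vehicle pair in both, Tlr1, Tlr3 and Tlr6 overlapped, and Tlr13 was below it. Tlr2, Tlr4, Tlr9 and Myd88 were also below it, as most genes were. The difference was −2.20 and −1.41 for Tlr2, −2.39 and −1.73 for Tlr4, −2.36 and −0.71 for Tlr9, and −3.34 and −1.67 for Myd88, in TAK-931-1 and TAK-931-2. The result depended on the denominator. Against Ptprc alone, the common leukocyte gene, 9 of the 10 genes were below the vehicle pair in each TAK-931-treated library, as were 92.1% of all tested genes (0.907% were above it). Tlr8 overlapped, at −0.07 and −0.42, where a gene of equal CPM would be at −4.52 and −2.21. Tlr7 was at −0.39 and −0.46 against Ptprc, Tlr1 at −0.99 and −0.58, Tlr3 at −1.14 and −0.78, Tlr6 at −1.27 and −0.85, and Tlr13 at −1.11 and −1.03. The part of macrophage number in these values was not tested. Markers of other cell types and tissues differed too. Those of T cells summed to 64.8, 55.4, 1197 and 138 CPM in Vehicle-1, Vehicle-2, TAK-931-1 and TAK-931-2. NK cell markers summed to 37.9, 18.4, 349 and 73.5 CPM, mostly from Prf1, Klrk1 and Eomes in TAK-931-1 (180, 76.7 and 69.4 CPM). Klrk1 overlapped the vehicle pair, and the other 5 were above it in each TAK-931-treated library (29.9% of all tested genes). Conventional dendritic cell markers summed to 30.3, 27.4, 324 and 64.4 CPM. Itgax made up most of this in the TAK-931-treated libraries (237 and 42.9 CPM). Flt3 overlapped the vehicle pair, and the other 7 were above it in each (29.9%). Endothelial markers summed to 245, 271, 863 and 259.5 CPM in the same order, with Vwf, Kdr and Cdh5 above the vehicle pair in each TAK-931-treated library and the other 5 genes overlapping. The part of endothelial cells in the members' levels was not tested. Skeletal muscle markers summed to 84.5, 84.7, 720.0 and 9.04 CPM, adipocyte markers to 41.4, 63.1, 285 and 26.2 CPM, and neutrophil markers to 6.40, 7.91, 130 and 16.4 CPM. Csf3r carried the neutrophil sum in both TAK-931-treated libraries, and in TAK-931-2 S100a8 had 0 counts and S100a9 had 2. The summed level of 7 fibroblast markers was 1882 and 2137 CPM in vehicle-treated libraries, 14767 CPM in TAK-931-1 but 5098 CPM in TAK-931-2. The summed plasma cell markers were 9713 and 10281 CPM in Vehicle-1 and Vehicle-2, 4793 CPM in TAK-931-1 but 13637 CPM in TAK-931-2, where Jchain was 1.51-fold and Irf4 2.23-fold the vehicle mean but Sdc1 0.847-fold, Xbp1 0.918-fold and Mzb1 0.964-fold.

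**Figure D4:**
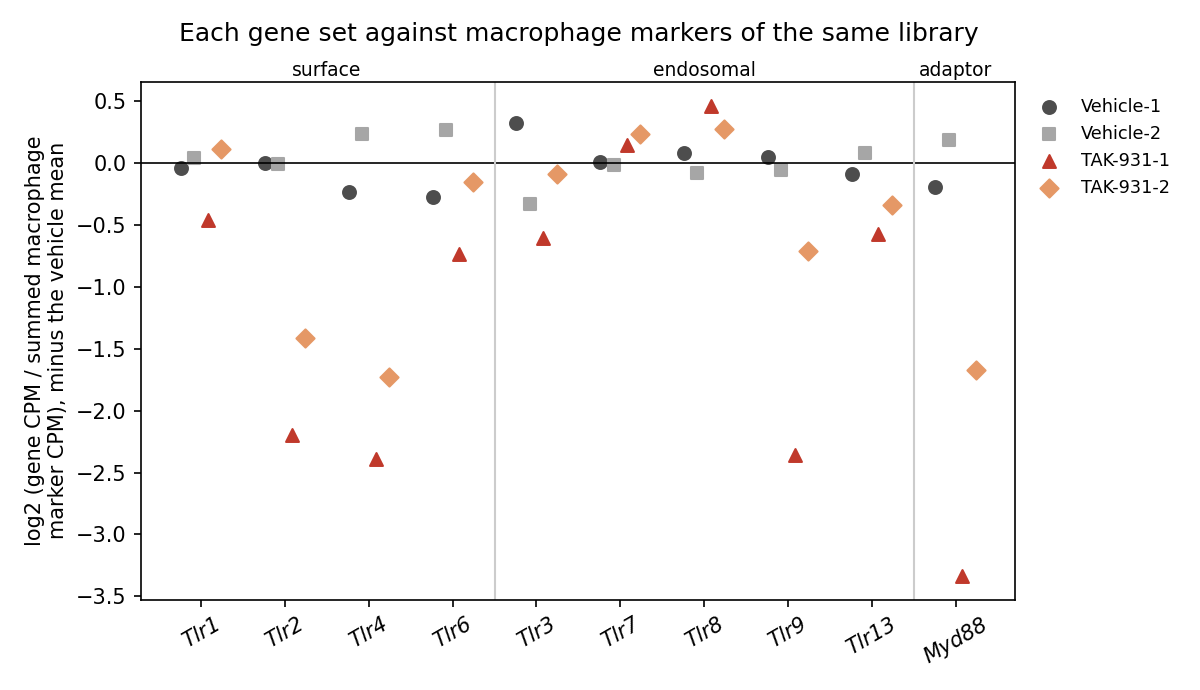
Log2 ratio of each gene to the summed CPM of 14 monocyte and macrophage markers in the same library, less the vehicle mean (vertical axis), by gene (horizontal axis); each symbol is 1 library. Tlr7 and Tlr8 lie between 0.15 and 0.47 in both treated libraries, and Tlr2, Tlr4, Tlr9 and Myd88 lie below the vehicle-treated libraries in both.

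Genes with the most similar profile were sought among 10748 genes by the root-mean-square distance between centered log2 CPM over the 4 libraries. With 4 points many genes come close, between 94 (Tlr3) and 1311 (Myd88) within 0.25, and the libraries are shared, so this is a description. Nearest to Tlr7 were Fcgr3, an activating Fc receptor of myeloid cells (distance 0.05), and the complement genes C1qb and C1qc, both on the macrophage marker list. Nearest to Tlr13 were Axl, a receptor for apoptotic cells (0.03), Alox5ap and Cyba, and nearest to Tlr1 were Smim3 (0.05), Cd68, a macrophage glycoprotein on that list (0.06), and Nos2. Nearest to Tlr3 were Herc6, an interferon-inducible gene (0.04), Stx7 and Ly6c1. The 3 nearest were Exoc3l, Dysf and Tmem98 for Tlr2, Nceh1, Sox18 and Vps26a for Tlr4, and Gng10, Rasal2 and Gng5 for Myd88. They were Meg3, Adam19 and Pkd2 for Tlr6, Cpq, C1s1 and Wdfy3 for Tlr8, and Tmem2, Cep250 and Fyco1 for Tlr9. A macrophage marker was among the 3 nearest for Tlr1 and Tlr7 and for no other member. Among the members, the closest pair was Tlr7 and Tlr8, 0.13 apart, followed by Tlr6 and Tlr13 (0.18), Tlr1 and Tlr13 (0.19), Tlr2 and Tlr4 (0.21), and Tlr1 and Tlr6 (0.22), whereas Tlr1 and its partner Tlr2 were 0.81 apart.

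Of the remaining Toll-like receptors of the mouse, Tlr5 and Tlr11 had few counts. Tlr12 had 60, 20, 276 and 84 counts in Vehicle-1, Vehicle-2, TAK-931-1 and TAK-931-2. It was 6.11-fold (TAK-931-1) and 2.06-fold (TAK-931-2) the vehicle mean, above the vehicle pair in each (29.9% of all tested genes). Tlr11 had 12, 2, 39 and 10 counts in the same order. Tlr5, the flagellin receptor, had 8 counts in TAK-931-1 and 0 in the other libraries, where a count of 0 allows up to 3 counts, or 0.175 to 0.180 CPM.

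Of 13 genes for co-receptors, chaperones and processing enzymes, 8 were higher and 2 lower in each TAK-931-treated library than in either vehicle-treated one (29.9% and 32.8% of all tested genes), and 4 reached an unadjusted p under 0.05, all higher (11.6% of all), namely Cd180, Ly86, Ctsb and Ctss. Cd180 and Ly86 encode a Toll-like receptor homolog and its partner. Cd180 had 119 and 51 counts with vehicle, and 1700 and 341 counts with TAK-931, a log2 fold change of 3.43 (SE 0.93). Of the cathepsins that trim endosomal receptors, Ctsb had a log2 fold change of 2.89 (SE 0.88), Ctsl of 2.57 (SE 0.96) and Ctss of 1.11 (SE 0.40). Unc93b1, which escorts the endosomal receptors from the endoplasmic reticulum, had 3768 and 3487 counts with vehicle, and 11600 and 4955 counts with TAK-931, a log2 fold change of 1.06 (SE 0.43). The partners of TLR4 and TLR2 were uneven. Cd14, which hands lipopolysaccharide to TLR4, had 52 and 106 counts with vehicle, and 590 and 44 counts with TAK-931. Cd36, a scavenger receptor that assists TLR2 with TLR6, had 280 and 430 counts with vehicle, and 3218 and 100 counts with TAK-931, so TAK-931-2 was below the vehicle pair. Ly96, the subunit of TLR4 that binds lipopolysaccharide, was nearly equal, with 191, 197, 197 and 194 counts in Vehicle-1, Vehicle-2, TAK-931-1 and TAK-931-2 and a log2 fold change of −0.09 (SE 0.36). Hsp90b1, the chaperone of most Toll-like receptors and an abundant gene of secretory cells, had 80974 and 75496 counts with vehicle, and 41170 and 70289 counts with TAK-931.

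Of 23 adaptors and kinases downstream of the receptors, 9 were above the vehicle pair in each TAK-931-treated library (29.9% of all tested genes), 3 were below it (32.8%) and 11 overlapped. An unadjusted p under 0.05 was reached by 5, all higher, against 11.6% of all genes called higher: Pik3ap1, Irak2, Ikbke, Irf7 and Ticam2. The median log2 fold change of this list was 0.30. Pik3ap1, which links Toll-like receptors to PI3K, had 285 and 213 counts with vehicle, and 2686 and 1087 counts with TAK-931, with a log2 fold change of 2.79 (SE 0.49). Irf7, the interferon regulatory factor downstream of TLR7 and TLR9, was 9.95-fold (TAK-931-1) and 2.72-fold (TAK-931-2) the vehicle mean. Irak2 was 2.84-fold and 2.52-fold, a near equal size in both. Ticam2, the bridging adaptor of TLR4, had 14 and 22 counts with vehicle, and 289 and 42 counts with TAK-931. The core of the MYD88 complex stood at 0.957-fold and 1.03-fold for Irak1, 1.83-fold and 0.754-fold for Irak4, and 1.24-fold and 1.22-fold for Traf6 (TAK-931-1 and TAK-931-2, relative to vehicle).

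Of 12 negative regulators, 3 reached an unadjusted p under 0.05, all higher (11.6% of all genes). In each TAK-931-treated library 9 were above the vehicle pair (29.9% of all genes), 0 below it (32.8%), and 3 overlapped. Tnfaip3, the deubiquitinase A20, was 1.86-fold (TAK-931-1) and 2.18-fold (TAK-931-2) the vehicle mean, with a log2 fold change of 1.02 (SE 0.22). Socs1, an inhibitor of cytokine signaling, had a log2 fold change of 1.64 (SE 0.35), and Nlrx1 one of 1.68 (SE 0.57). Irak3, the inhibitory IRAK of macrophages, was 10.4-fold in TAK-931-1 but 1.59-fold in TAK-931-2, with a log2 fold change of 2.58 (SE 1.06).

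Genes that Toll-like receptors are known to induce, many of which other receptors induce too, formed a list of 18. Il12b, Il6 and Cxcl2 had under 10 counts in both vehicle-treated libraries and were tested only because of their TAK-931 counts. Ifnb1, with 6 counts in Vehicle-1 and 0 elsewhere, was not tested. No row of the count tables carried the symbol Acod1, so that gene was not analysed. Of the other 13 tested, a split made after seeing the data, 10 reached an unadjusted p under 0.05, all higher (11.6% of all genes), and 11 were higher in each TAK-931-treated library than in either vehicle-treated one (29.9%), with a median log2 fold change of 3.06. Ptgs2, the inducible cyclooxygenase, had 12 and 14 counts with vehicle, and 360 and 149 counts with TAK-931, with a log2 fold change of 4.14 (SE 0.65). Il12b, a cytokine subunit made by activated macrophages and dendritic cells, had 2 and 0 counts with vehicle, and 178 and 98 counts with TAK-931. Nfkbiz was 7.40-fold (TAK-931-1) and 3.22-fold (TAK-931-2) the vehicle mean. Il10, an anti-inflammatory cytokine, had 326 and 311 counts with vehicle, and 154 and 317 counts with TAK-931. It was 0.427-fold (TAK-931-1) and 0.974-fold (TAK-931-2) the vehicle mean, so TAK-931-1 alone stood clearly apart. Of 6 interleukin receptor genes that also signal through MYD88, 3 were above the vehicle pair in each TAK-931-treated library (29.9% of all genes), 1 was below it (32.8%) and 2 overlapped. Il18r1 and Il18rap had log2 fold changes of 4.65 (SE 1.53) and 4.38 (SE 1.22), and Il1rap, the shared accessory chain, was lower at −0.98 (SE 0.36), all 3 at an unadjusted p under 0.05 (18.1% of all genes). Il1r1, Il1rl1 and Il1rl2 did not reach it, with log2 fold changes of 1.11 (SE 0.57), 2.39 (SE 1.41) and 1.29 (SE 0.88). No gene of these 6 lists passed an adjusted p of 0.05 by edgeR.

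**Figure D5:**
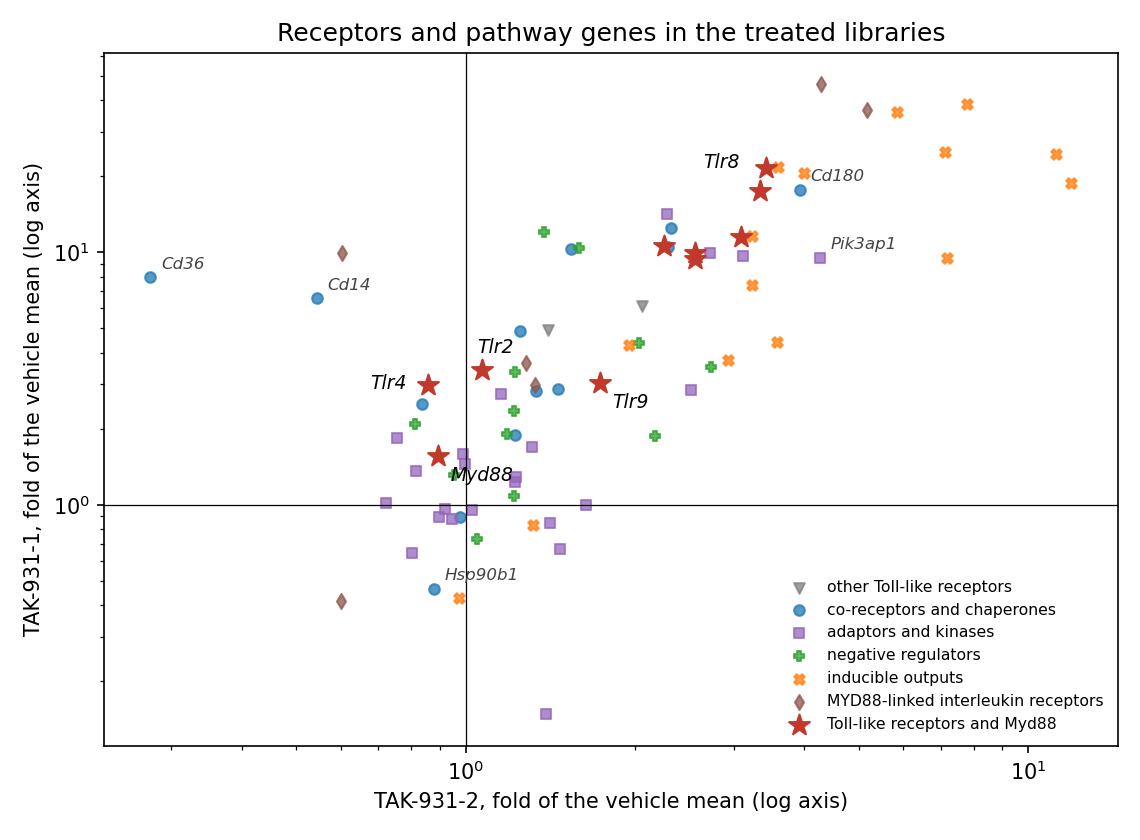
Fold of the vehicle mean in TAK-931-1 (vertical log axis) against TAK-931-2 (horizontal log axis) for the 10 members (stars) and 71 tested genes of the pathway lists with over 3 counts in a vehicle-treated library; lines mark 1-fold. Tlr2, Tlr4 and Myd88 sit near 1-fold in TAK-931-2, and Cd36 and Cd14 lie to their left at 0.275-fold and 0.544-fold.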

How the data were processed

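Bulk RNA-seq was performed on J558 allografts (2 vehicle-treated, 2 TAK-931-treated). The authors deposited 1 table of read counts per gene and library, with no normalization. The submitters' processing notes name STAR 2.6.1c, featureCounts and the build mm10, and the deposited headers point to uniquely placed reads. Strand setting and read length are not given in the sources used here. The other column of another kind that the authors deposited, exon length, was used for levels per kb. Odd values made up 17.9% to 23.9% of low counts (1 to 20), so both mates of a pair may have been counted and the counting error is then larger than printed. Intervals and floors cover counting error only.

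Genes were kept by filterByExpr (minimum count 10) and scaled by TMM. Groups, taken from the sample titles, were compared by the robust quasi-likelihood test of edgeR 4.0.16 (R 4.3.3), two-sided, with Benjamini-Hochberg adjustment over all tested genes. The SE was the absolute log2 fold change divided by the square root of F. Alternatives used limma 3.58.1, DESeq2 1.42.0, other scalings and filters, and each library left out. The edgeR test was also run on simulated counts, with an outcome that is not reported here. The members, lists and motifs were chosen with earlier results of these data known. All members were named, and other genes came from the lists, from the 3 nearest profiles (mean log2 CPM over 2), from shared transcript stretches, or, as Ptprc, from the alternatives. The design text calls the samples independent but does not tie them to numbered mice, so p-values measure the spread between these samples. Sequences came from RefSeq and shared stretches from GENCODE vM21 transcripts.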

Additional observations from a re-analysis of the deposited data

How the results depend on the processing

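Members with an adjusted p under 0.05 numbered 0 in edgeR and with RLE scaling, with totals alone as the scale, both other filters, limma-voom, no robust estimation and halved counts, but 6 in DESeq2, which called 1411 of all genes. Leaving out each library gave 0 to 10 members and 0 to 8424 of all genes (5 members and 3996 genes without TAK-931-1, 10 and 8424 without TAK-931-2), because a lone library is then assumed to vary like the other group. Members with an unadjusted p under 0.05 numbered 7 and became 0 in limma-voom and 4 to 10 with a library left out. For the pathway lists 26 genes became 16 in limma-voom and 21 to 55 with a library left out. The log2 fold changes of Tlr4 and Myd88 were −0.22 to 1.56 and −0.17 to 0.62 over the left-out libraries, negative without TAK-931-1. The direction of the other 8 members held under every alternative run. The median difference of the members from macrophage markers was −0.45 on the log2 scale and became −1.06 against Ptprc alone and −0.29 without 5 abundant markers. Replicate numbers are shared by the groups, and a fit with the replicate block called 144 of all genes and 0 members. Deviations of same-numbered libraries correlated at 0.004 across genes, with 2 pairs. The numbers run along the letters B and R of the column names, and the vehicle pair, split by the same letters, had a coefficient of variation of 0.132 against 0.579 in the TAK-931 pair. What the letters mark was not tested. The causes of these shifts were not tested, beyond the left-out libraries. Dividing counts by length, an alternative chosen after seeing the data, moved the share of Tlr2 and Tlr4 little, from a difference of −22.1 to −22.4 percentage points. The SE was largest for Tlr8 (1.02) and Tlr7 (0.91).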
